A study of Mus musculus with 36 samples.

Results

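The genes examined were 40 of the 46078 genes in the count table: 19 that serve S phase, when DNA is copied, and 21 that serve G2 and mitosis, when the copied chromosomes are parted. They were listed by symbol for their known roles, and all 40 were matched to a row of the table by Ensembl identifier and passed the filter on low counts in every fit. The assay was BRB-seq, in which transcript 3' ends are barcoded per sample, pooled and counted. The cells were mouse astrocytes that lack Nf1, whose product restrains Ras, and that carry DNp53, a dominant-negative form of the tumour suppressor p53. Each of 5 lots (6, 7, 8, 11 and 12), which stem from separate litters, supplied a female line and a male line, so that 36 libraries represent 10 lines. The lines of lots 6 and 12 had 3 libraries each and those of lots 7, 8 and 11 had 4, which gave 18 female and 18 male libraries. Each line carried both the Nf1 loss and DNp53 and was grown in DMEM/F12 with 10% FBS, and lines without these changes were not analysed here. A sex or lot is represented by 1 line per lot, so an effect of sex or litter and the individuality of a line cannot be told apart.

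A dividing cell turns these genes on in waves. Around the start of S phase, E2F transcription factors switch on genes that license and fire replication origins (Cdc6, Cdt1, the Mcm helicase), make deoxynucleotides (Rrm1, Rrm2, Tyms, Tk1) and maintain chromatin and DNA methylation (Uhrf1, Hells). Later, the MuvB core with B-Myb and FoxM1 switches on the mitotic genes through an element called CHR (cell cycle genes homology region), mostly together with NF-Y at CCAAT boxes. p53 lowers many of the mitotic genes through p21, the product of Cdkn1a, and the repressive DREAM form of MuvB, a route that a dominant-negative p53 weakens.

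The promoters of 6 members are shown because these genes were among those called between the replicates of lot 12 and differ in the motifs they hold: Cenpa, Cdc20 and Ccnb2 from the mitotic set, then Uhrf1, Cdc6 and Mcm3 from the S phase set. Each is the 300 bases from 250 before to 50 after a RefSeq transcription start (GRCm38.p6), read 5' to 3' on the gene's strand. Capitals mark matches on either strand to CHR (TTTGAA), the CCAAT box (CCAAT) and 2 E2F forms (TTCCCGC and TTGGCGC). The windows lie at chr5:30666636-30666935 on the plus strand for Cenpa, chr4:118437294-118437593 on the minus strand for Cdc20 and chr9:70421505-70421804 on the minus strand for Ccnb2. The S phase windows lie at chr17:56303087-56303386 on the plus strand for Uhrf1, chr11:98907901-98908200 on the plus strand for Cdc6 and chr1:20820263-20820562 on the minus strand for Mcm3.
Cenpa: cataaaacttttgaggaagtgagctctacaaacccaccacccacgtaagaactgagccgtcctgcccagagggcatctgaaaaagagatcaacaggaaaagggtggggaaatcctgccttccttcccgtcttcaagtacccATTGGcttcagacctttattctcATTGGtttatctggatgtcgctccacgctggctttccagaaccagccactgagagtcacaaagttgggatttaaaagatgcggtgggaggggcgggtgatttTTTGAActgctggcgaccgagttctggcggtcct
Cdc20: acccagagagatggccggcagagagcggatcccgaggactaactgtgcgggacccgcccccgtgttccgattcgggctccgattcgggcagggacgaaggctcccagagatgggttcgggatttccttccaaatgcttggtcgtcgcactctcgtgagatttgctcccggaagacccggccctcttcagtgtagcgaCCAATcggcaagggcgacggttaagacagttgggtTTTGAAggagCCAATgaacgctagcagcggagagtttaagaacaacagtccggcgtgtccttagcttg
Ccnb2: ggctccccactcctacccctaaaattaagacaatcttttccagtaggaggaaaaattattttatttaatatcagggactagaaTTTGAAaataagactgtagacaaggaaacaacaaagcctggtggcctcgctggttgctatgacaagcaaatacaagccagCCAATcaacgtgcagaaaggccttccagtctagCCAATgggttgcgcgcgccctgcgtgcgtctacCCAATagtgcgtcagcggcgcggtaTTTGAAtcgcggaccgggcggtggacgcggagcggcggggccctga
Uhrf1: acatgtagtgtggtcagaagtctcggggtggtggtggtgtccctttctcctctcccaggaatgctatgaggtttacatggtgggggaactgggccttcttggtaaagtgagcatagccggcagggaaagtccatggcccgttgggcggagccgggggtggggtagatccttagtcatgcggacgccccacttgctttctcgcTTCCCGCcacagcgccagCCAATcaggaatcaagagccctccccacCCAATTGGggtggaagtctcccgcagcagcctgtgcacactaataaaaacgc
Cdc6: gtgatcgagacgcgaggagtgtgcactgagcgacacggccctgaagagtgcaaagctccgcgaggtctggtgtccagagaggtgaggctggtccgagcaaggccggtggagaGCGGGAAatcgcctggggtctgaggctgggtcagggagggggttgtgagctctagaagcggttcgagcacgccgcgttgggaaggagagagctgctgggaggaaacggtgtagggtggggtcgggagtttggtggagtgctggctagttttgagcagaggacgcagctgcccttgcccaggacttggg
Mcm3: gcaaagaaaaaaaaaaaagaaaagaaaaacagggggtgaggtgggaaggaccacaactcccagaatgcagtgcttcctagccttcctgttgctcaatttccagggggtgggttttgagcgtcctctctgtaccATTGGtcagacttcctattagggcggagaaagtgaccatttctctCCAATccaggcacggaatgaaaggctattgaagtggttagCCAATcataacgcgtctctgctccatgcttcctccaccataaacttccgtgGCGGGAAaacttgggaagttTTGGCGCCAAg
The Cenpa window held 2 CCAAT boxes on the minus strand and a CHR match 16 bases past the start, and the Cdc20 window held a CHR match 18 bases before the start between 2 CCAAT boxes. Ccnb2 had 3 CCAAT boxes and 2 CHR matches, 167 bases before and 4 bases past the start. In the S phase windows no CHR match was found, Uhrf1, Cdc6 and Mcm3 each had the first E2F form, and Mcm3 also had the other form on both strands at overlapping positions. The forward and reverse CCAAT matches of Uhrf1 at its start also overlap. Another window of Uhrf1, not printed, held a CCAAT box but neither E2F form. The Cdc6 window lies wholly past the start of the gene in GENCODE M21 (chr11:98907801), so its E2F match is inside that gene.

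Across the set, a window was found for 16 of the 19 S phase members and 17 of the 21 mitotic members. CHR was in 13 mitotic members (76.5%) and 1 S phase member, Mcm2 (6.25%), against 20.2% of the 27025 genes with a window. The CCAAT box was in 16 mitotic members (94.1%) and 9 S phase members (56.2%), against 41.1% of all genes. Either E2F form was in 3 mitotic members (17.6%) and 9 S phase members (56.2%), against 7.79% of all genes. A match is a description of letters in the window and says nothing of which factor was bound in these cells.

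**Figure D1:**
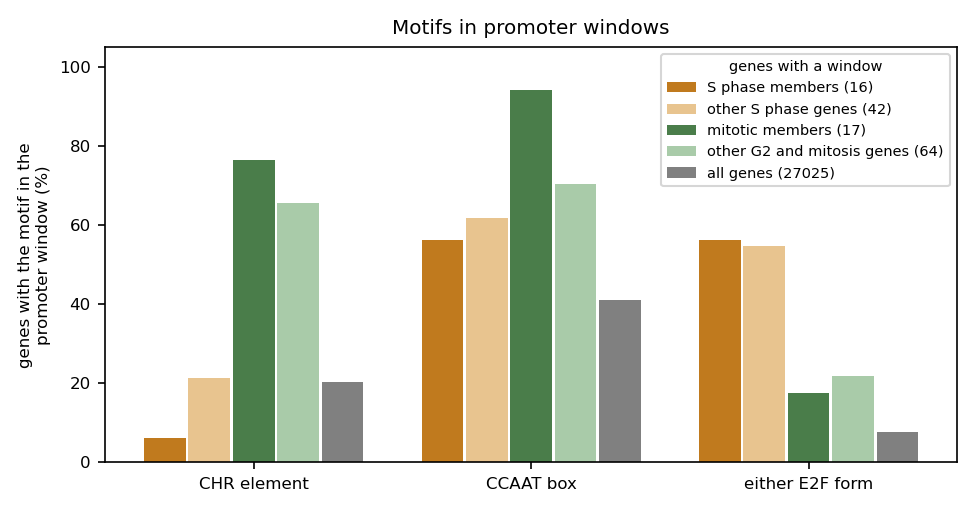
Share of genes whose 300-base promoter window holds the CHR element, the CCAAT box or either E2F form (y axis, percent), for the S phase members, the mitotic members, other S phase genes, other G2 and mitosis genes and all genes. CHR was in 76.5% of mitotic and 6.25% of S phase members with a window, and an E2F form in 17.6% and 56.2%.

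Library totals ranged from 4358098 to 7562901 counts, and a count of 3 was worth 0.397 to 0.688 CPM (counts scaled to a common library size), and the lowest count of any member in any library was 8. The 40 genes together took 0.42 to 0.797% of a library's counts. Nf1 line means were 0.667 to 2.27 CPM in female and 1.44 to 2.60 CPM in male lines, and the sum of Ddx3y, Eif2s3y, Kdm5d and Uty was at most 0.94 CPM in female and at least 12.5 CPM in male lines. Of 10 astrocyte markers, 5 averaged over 1 CPM and none was at 0, with the connexin Gja1 at 143 CPM and Gfap at 0.143 CPM. Markers of neural progenitors were over 1 CPM for 4 of 6 genes and those of fibroblasts, pericytes and smooth muscle for 4 of 8. Microglial and macrophage markers were over 1 CPM for 1 of 11 (Cd68) and at 0 in all libraries for 4, and 0 of 5 oligodendrocyte and 0 of 4 endothelial markers exceeded 1 CPM.

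Reads of some members may be shared. Strand setting was not given in the sources used here, and genes on the opposite strand overlap Ccna2 (Exosc9, with 15% of its counts), Cdc20 (Elovl1, 66.2%), Kif20a (Cdc23, 37.7%), Ccne2 (Ints8, 56.3%) and Mcm7 (Cops6 and Ap4m1, 189%), so the values of these 5 are uncertain. Pseudogenes of Pcna held 2295 counts beside 35031 of Pcna, and those of Ccnb1 and Ccnb2 held 78 and 60.

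All 40 genes were expressed in every line. Mki67, which coats mitotic chromosomes and marks cycling cells, had its highest line mean in lot 6 females, 77.2 ± 10.9 CPM (SD, n = 3 libraries), and its lowest in lot 7 females, 32.7 ± 4.00 CPM (SD, n = 4). Top2a, the topoisomerase that untangles sister chromatids, had line means between 209 ± 44.6 CPM in the lot 12 male line and 285 ± 28.0 CPM in the lot 7 male line. Top2a did not pass the test for differences among lines that follows. Ccnb1, the cyclin B that drives entry into mitosis, averaged 323 ± 27.3 CPM in the lot 6 female line and 162 ± 92.9 CPM in the lot 12 female line, whose SD was the largest among the female lines.

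The S phase genes spread less between lines. Pcna, the sliding clamp of the DNA polymerases, had line means between 182 ± 11.6 CPM (lot 11 female) and 140.4 ± 6.81 CPM (lot 11 male). Mcm2, a subunit of the replicative helicase, had means between 93.6 ± 7.71 CPM (lot 11 male) and 126 ± 12.9 CPM (lot 7 male). The S phase cyclin Ccne1 had means between 21.1 ± 3.66 CPM (lot 12 male) and 33.9 ± 6.59 CPM (lot 8 male). None of these 3 passed the test among lines. E2f1, an activator of the S phase genes, had line means between 17.4 ± 2.20 CPM (lot 8 female) and 31.1 ± 7.41 CPM (lot 6 female), and did not pass either.

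Differences among the 10 lines were tested in 1 fit with a coefficient per line (edgeR quasi-likelihood test, Benjamini-Hochberg adjusted p under 0.05), in which 51.8% of all 12173 genes tested passed. Of the members, 12 of 21 mitotic and 5 of 19 S phase genes passed. The mitotic members of smallest p were the mitotic kinase Cdk1 (edgeR adjusted p = 5.4e-05), the spindle kinase Aurka (edgeR adjusted p = 1.2e-04), cyclin A2 (Ccna2, edgeR adjusted p = 2.0e-04) and the checkpoint kinase Bub1 (edgeR adjusted p = 2.7e-04). Those of S phase were thymidylate synthase (Tyms, edgeR adjusted p = 1.1e-04), thymidine kinase (Tk1), the GINS subunit Gins2, the chromatin remodeller Hells and the licensing factor Cdc6. On the log2 scale, line means of a mitotic member spanned a median of 1.11 and those of an S phase member 0.51, beside 1.15 over all genes tested and 0.79 over those averaging at least 4 on that scale. The widest ranges among mitotic members were those of the kinesin Kif20a (1.58), Aurka (1.54), the centromeric histone Cenpa (1.39) and cyclin B2 (Ccnb2, 1.27). Among S phase members they were those of Cdc6 (1.15), cyclin E2 (Ccne2, 0.93), E2f1 (0.80) and Hells (0.78), of which Ccne2 and E2f1 did not pass. The share of a gene's variance that lay between lines had a median of 42.2% for mitotic and 36.3% for S phase members, against 48.8% over all genes tested. For Kif20a and Cenpa, despite their wide ranges, it was 21.6% and 28.2%. The remainder lay between libraries of the same line. The p-values measure the spread between libraries of a line, which the labels do not describe as separate cultures.

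**Figure D2:**
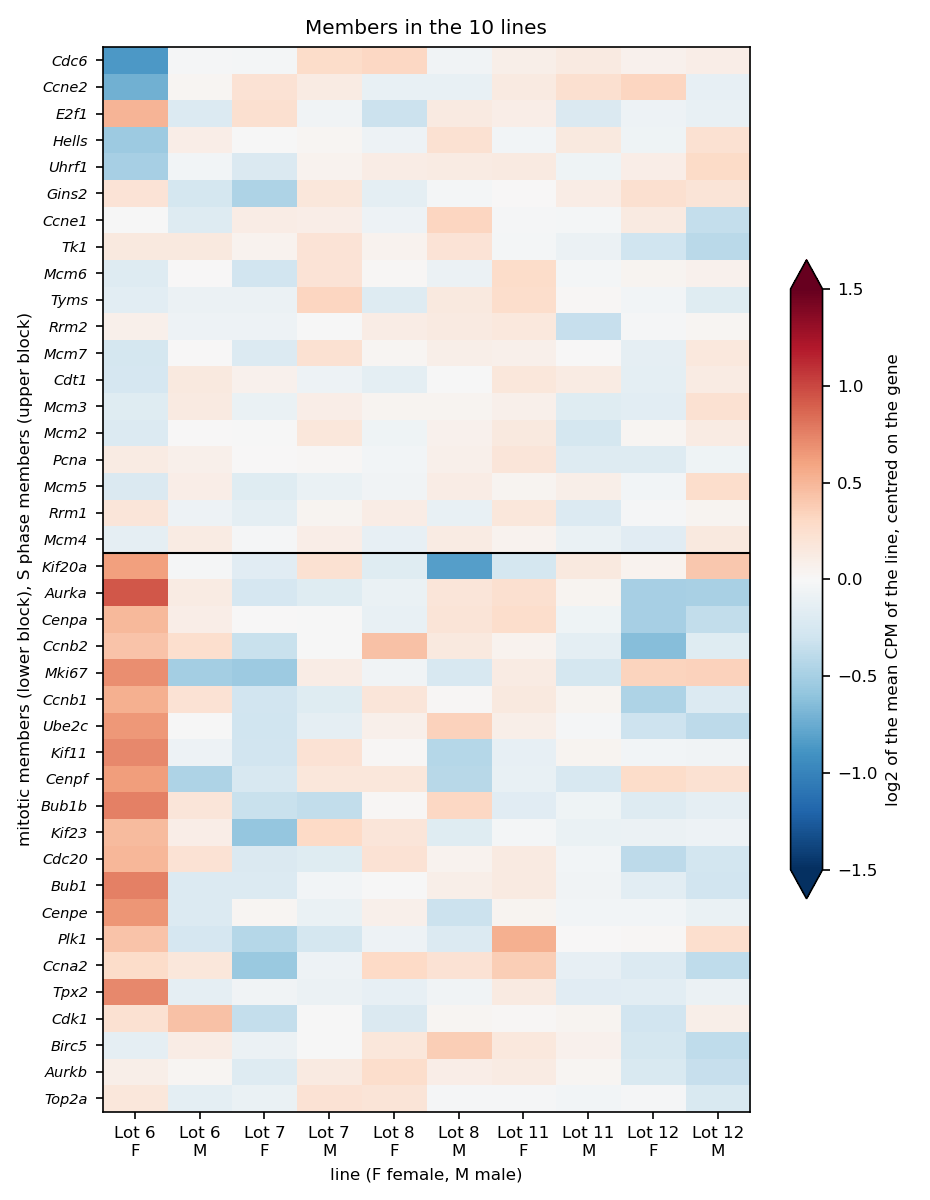
Heat map of the 40 members (rows, S phase genes in the upper block and mitotic genes in the lower) over the 10 lines (columns), coloured by the log2 of the line's mean CPM, centred on the gene's mean over the lines. The lot 6 female column is high over most of the mitotic block, where its score was 0.54, and low for Cdc6, Ccne2 and Hells.

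The 2 sets were then scored separately: log2 CPM was centred gene by gene on the line means, and the score is its mean over the set. The mitotic score averaged 0.54 ± 0.09 (SD, n = 3 libraries) in the lot 6 female line and lay between 0.13 ± 0.07 in the lot 11 female line and -0.28 ± 0.49 in the lot 7 female line in the other 9. The S phase score varied from 0.11 ± 0.08 in the lot 11 female line to -0.15 ± 0.14 in the lot 6 female line. With the library scaling used, the lot 6 female line thus had the highest mitotic and the lowest S phase score of the 10 lines. Its libraries ranged from -0.24 to 0.01 in S phase score. Without scaling, the S phase score of the lot 6 male line was -0.12 in place of 0.01, so the S phase order of the lines depends on it. The lot 12 lines had mitotic scores of -0.27 (female) and -0.25 (male), close to that of the lot 7 female line and below those of the other 7 lines, and the widest spread, with mitotic SDs of 0.65 (female) and 0.81 (male) and S phase SDs of 0.47 (female) and 0.37 (male). In libraries of whole cultures, fewer cells in a phase of the cycle and less RNA per cell cannot be told apart.

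**Figure D3:**
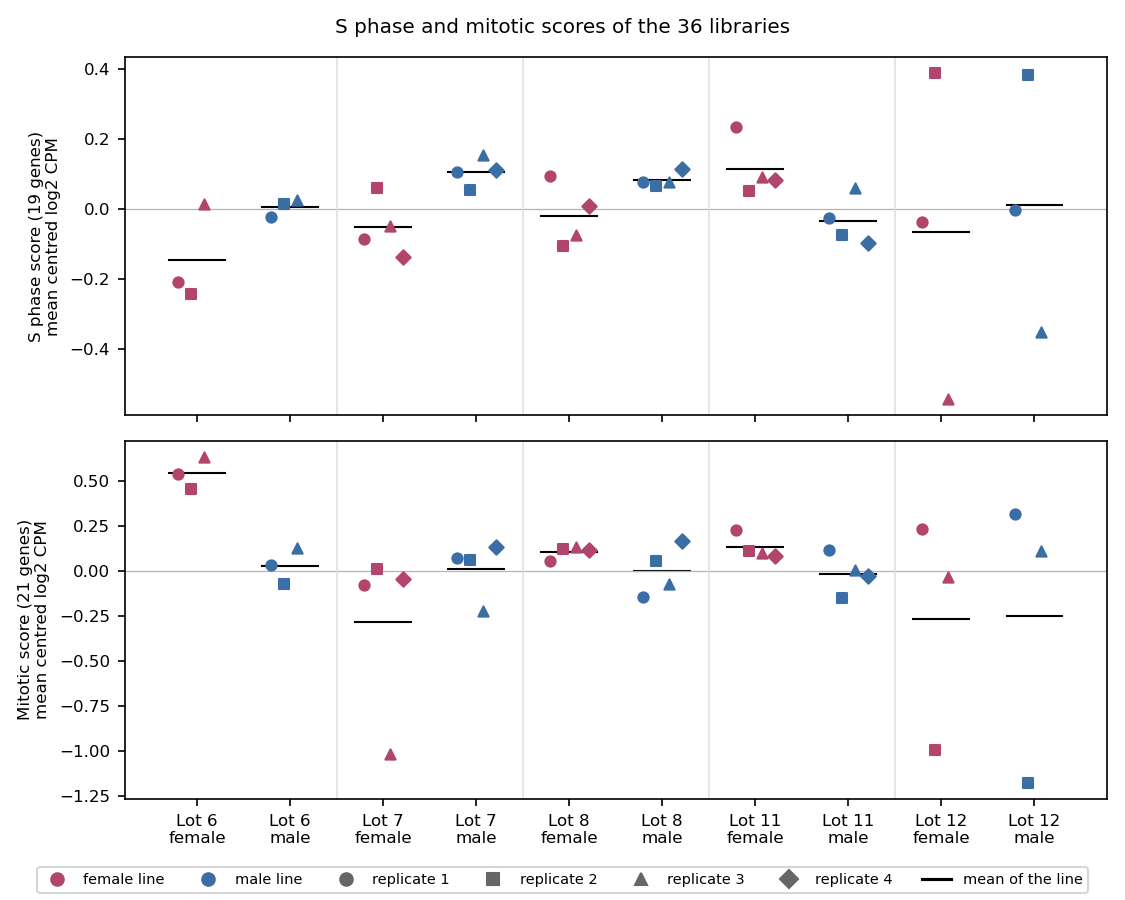
S phase score and mitotic score of each library (points; y axis, mean centred log2 CPM over the genes of the set) by line, female left of male in each lot, with the marker shape giving the replicate number and a black line the line mean. Replicate 2 of both lot 12 lines and replicate 3 of the lot 7 female line are the 3 lowest points of the mitotic panel, replicate 2 of both lot 12 lines the highest of the S phase panel, and the 3 lot 6 female libraries lie between 0.46 and 0.63 in the mitotic panel.

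Over the 10 lines the scores were nearly unrelated (Pearson r = -0.19, Spearman rho = 0.21, n = 10), and without the lot 11 and lot 6 female lines, farthest from the median S phase score, r was 0.48 and rho 0.52 (n = 8). Within lines, deviations from the line mean had r = -0.55 and rho = -0.13 over 36 libraries, r = -0.74 and rho = -0.43 over the 6 lot 12 libraries, and r = 0.10 and rho = 0.18 over the other 30. The negative value thus rested on lot 12. All members of a score share the library's depth and scaling, and no test was made of these descriptions.

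The comparison of female with male lines across lots, with counts summed per line and the lot as a block, gave no call among the 40 members, nor among the 12010 genes tested (0%). At an unadjusted p under 0.05, 841 genes passed, among them Hells, at -0.29 ± 0.11 log2 (SE, edgeR adjusted p = 0.69), and Cdk1, at -0.23 ± 0.09 (edgeR adjusted p = 0.69). The median log2 fold change, female over male, was 0.09 for mitotic members, with 18 of 21 above 0, and -0.08 for S phase members, with 5 of 19 above 0, beside 0.01 for all genes. Without lot 6 the mitotic median was -0.002, and without scaling the S phase median was 0.01. DESeq2 and limma voom gave 0 calls too. Differences among the 5 lots in the same fit gave 0 members, with 3 genes called in all (0.025%) and Cdc20, the activator of the anaphase-promoting complex, smallest in p (edgeR adjusted p = 0.45).

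Lot 6 had the most mitotic members called between its female and male lines. Of the 21 mitotic members, 7 were higher in the female line and 0 lower, where 13.5% of all genes were higher and 14% lower. Mki67 had 70.6, 71.3 and 89.8 CPM in the 3 female libraries, against 30.6, 24.4 and 45.6 CPM in the 3 male libraries. Bub1, which recruits the checkpoint to kinetochores, had 57.5, 53.3 and 62.5 CPM in female and 28.7, 34.3 and 26.2 CPM in male libraries. The groups did not overlap for either gene, and the log2 fold changes, female over male, were 1.20 ± 0.28 (SE) for Mki67 (edgeR adjusted p = 0.0012) and 0.96 ± 0.19 for Bub1 (edgeR adjusted p = 1.6e-04). The spindle kinesin Kif11 had 43.8, 61.3 and 59.5 CPM in female and 35.6, 26.9 and 32.0 CPM in male libraries. The spindle assembly factor Tpx2 had 257, 273 and 262 CPM in female and 139.6, 120.4 and 179 CPM in male libraries. Again every female library lay above every male library, at 0.80 ± 0.23 for Kif11 (edgeR adjusted p = 0.0066) and 0.85 ± 0.24 for Tpx2 (edgeR adjusted p = 0.0067). The other calls were Aurka (0.81), the kinetochore protein Cenpf (1.08) and Ube2c, the ubiquitin-conjugating enzyme of the anaphase-promoting complex (0.65).

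S phase members of lot 6 were split. Hells had 111, 112 and 134 CPM in the female libraries, against 156, 179.9 and 221 CPM in the male libraries, at -0.64 ± 0.18 (edgeR adjusted p = 0.0077). Cdc6, which loads the helicase onto origins, had 21.6, 20.3 and 23.7 CPM in female and 29.1, 39.5 and 49.3 CPM in male libraries, at -0.85 ± 0.28 (edgeR adjusted p = 0.020). The groups did not overlap for either gene. E2f1 had 30.8, 23.8 and 38.6 CPM in female and 13.1, 21.2 and 22.1 CPM in male libraries, at 0.72 ± 0.27 (edgeR adjusted p = 0.044). Over the whole set, all female libraries lay above all male libraries for 11 mitotic members and below for 0, where 22.7% and 19.8% of all genes did. All female libraries lay below all male libraries for 10 S phase members and above for 4. The median log2 fold change was 0.58 for mitotic and -0.21 for S phase members, beside 0.06 for all genes. The direction of the S phase calls depended on the scaling, since without it all genes shifted by 0.21 log2, Cdc6 and Hells no longer passed (edgeR adjusted p = 0.081 and 0.068) and Gins2, Rrm1 and E2f1 were the S phase calls, all higher. Without scaling 9 mitotic members were higher and 0 lower.

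**Figure D4:**
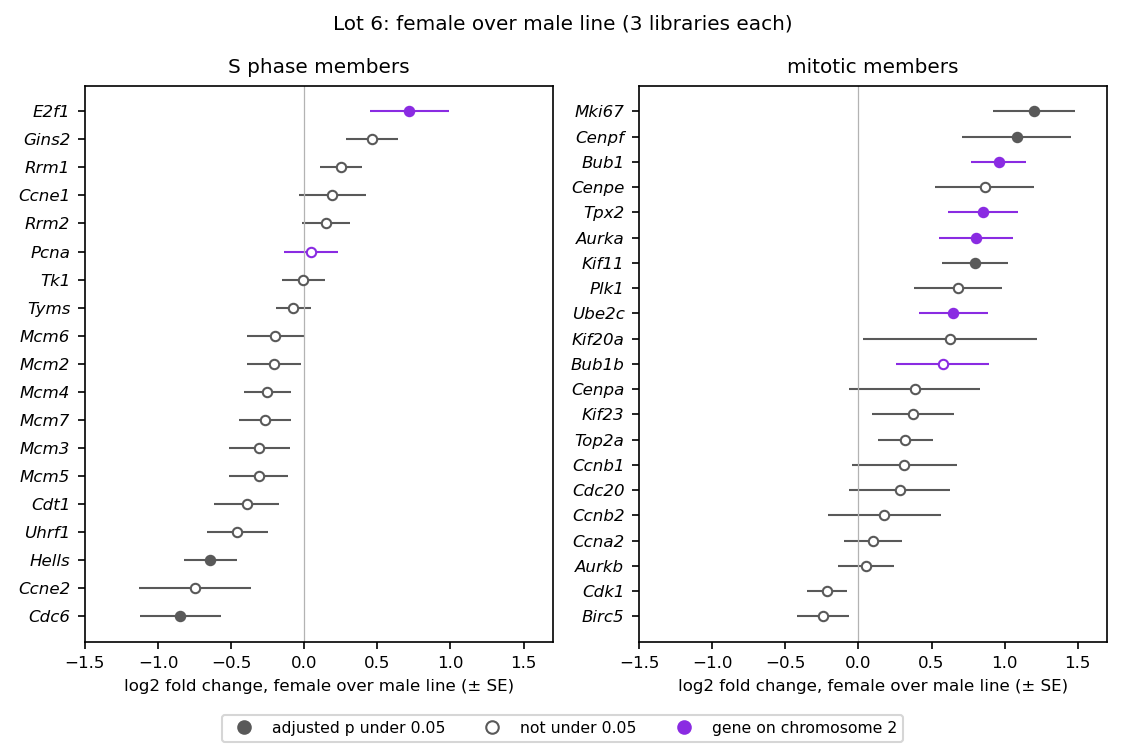
Log2 fold change, female over male line of lot 6, of the 40 members (points, with bars of 1 SE; filled points passed the test, purple points lie on chromosome 2). Of the mitotic members 19 of 21 lie above 0, and of the S phase members 6 of 19.

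Other values moved with the lot 6 female line. Of the mitotic members, 5 lie on chromosome 2 (Aurka, Bub1, Bub1b, Tpx2 and Ube2c), and of these 4 were higher (median 0.81), against 3 of the 16 elsewhere (median 0.35). All 990 genes tested on chromosome 2 had a median of 0.41, with 266 higher and 57 lower, while genes on the other chromosomes had a median of 0.03. Over genes averaging at least 4 in log2 CPM, the median was -0.64 on chromosome 10 and -0.41 on chromosome 11. After such a median of its own chromosome was subtracted, each of the 21 mitotic members was above 0 (median 0.46). Cdk1 on chromosome 10 (-0.21) and Birc5 on chromosome 11 (-0.24) were below 0 before it. Of 19 S phase members 6 were above 0 after it (median -0.23), and Cdc6, on chromosome 11, went from -0.85 to -0.44. Ribosomal protein genes took 17.6 to 19.9% of counts in the female and 23.4 to 27.2% in the male libraries of lot 6. Without scaling, the 8 markers of fibroblasts, pericytes and smooth muscle summed to 15858 CPM in the female and 5095 CPM in the male line. Nearly all of the former came from Acta2. The 10 astrocyte markers, also without scaling, summed to 122 CPM in the female and 224 CPM in the male line. The part of these in the members' differences was not tested.

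The difference of lot 6 lay mostly in its female line. Set against the mean of the other 9 lines, the lot 6 female line had 11 mitotic members higher and 0 lower, and 1 S phase member higher and 4 lower, where 17.1% of all genes were higher and 14.4% lower. Aurka was higher by 1.04 ± 0.17 log2 (SE, edgeR adjusted p = 5.6e-06), Bub1 by 0.83 ± 0.13 (edgeR adjusted p = 2.2e-06), Kif11 by 0.80 ± 0.15 (edgeR adjusted p = 7.1e-05) and Tpx2 by 0.80 ± 0.16 (edgeR adjusted p = 1.8e-04). Cdc6 was at -0.96 ± 0.22 (edgeR adjusted p = 8.1e-04), Hells at -0.61 ± 0.14, the methylation cofactor Uhrf1 at -0.55 ± 0.16 and Ccne2 at -0.81 ± 0.30, while E2f1 was at 0.57 ± 0.19. Cdc6 had 20.3 to 23.7 CPM in these 3 libraries, and its mean in the other 9 lines was 38.5 CPM or more. Of the 36 libraries, the highest was a lot 6 female library for 12 of the 21 mitotic members. All 5 mitotic members on chromosome 2 were higher, and 6 of the 16 elsewhere. Without scaling the S phase calls were 4 higher (E2f1, Gins2, Rrm1 and Tk1) and 3 lower (Cdc6, Hells and Uhrf1), and the call of Ccne2 was lost (edgeR adjusted p = 0.069). In the lot 6 male line 1 member passed, Cdk1, at 0.49 ± 0.10 (edgeR adjusted p = 3.0e-04), where 13.5% of all genes did.

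Other G2 and mitosis genes were called in the lot 6 female line too. Of 78 listed, 45 were higher in the lot 6 female line than in the mean of the other 9 and 3 lower, with a median of 0.56, beside 0.03 over all genes. The kinetochore gene Spc25 (1.53 ± 0.12), the spindle protein gene Ckap2l (1.40 ± 0.15), securin (Pttg1, 1.11 ± 0.13) and the checkpoint gene Bub3 (0.53 ± 0.07) were smallest in p. Securin was not particular to this line. It was also higher in the lot 6 male (1.20 ± 0.13) and lot 7 male (1.06 ± 0.12) lines, each against the mean of the other 9. It was lower in the female lines of lots 7, 8 and 11 and the male lines of lots 11 and 12. On chromosome 2, 12 of 12 such genes were higher, and elsewhere 33 of 66. Of 55 other S phase genes tested, 5 were higher and 6 lower, with Tcf19 at 0.88 ± 0.15 and Wdhd1 at -2.03 ± 0.42. Of 41 cell cycle regulators, 4 were higher, among them the inhibitors of Cdk4 and Cdk6 Cdkn2d (1.52 ± 0.19) and Cdkn2c (1.20 ± 0.25), and 2 were lower. For the other S phase genes and the regulators these are smaller shares than the 17.1% higher and 14.4% lower over all genes. Between the lot 6 female and male lines 4 regulators were higher and 5 lower, where 13.5 and 14% of all genes were, with Cdkn2d (2.25 ± 0.31), Cdkn1a (-1.66 ± 0.42) and Myc (-0.59 ± 0.14). Cdkn1a was at 2.40 ± 0.25 in the lot 6 male line against the mean of the other 9.

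In lots 7, 8 and 11 few members differed between the sexes. Thymidylate synthase was called, lower in the female line, in lots 7 and 8 but not in lot 11. In lot 7, 2 S phase members and 1 mitotic member were lower in the female line and 0 higher, where 5.42% of all genes were lower and 5.41% higher. Tyms, which makes thymidylate for DNA synthesis, had 390.2, 345, 303 and 363 CPM in the lot 7 female libraries, against 492, 437, 514 and 408 CPM in the male libraries. Gins2, of the helicase complex, had 54.5, 56.2, 58.6 and 37.2 CPM in female and 78.0, 67.8, 94.0 and 79.1 CPM in male libraries. The groups did not overlap for either gene, at -0.40 ± 0.10 log2 (SE) for Tyms (edgeR adjusted p = 0.0065) and -0.63 ± 0.16 for Gins2 (edgeR adjusted p = 0.0056). Kif23, a kinesin of cytokinesis, had 42.8, 46.7, 21.9 and 47.9 CPM in female and 71.2, 78.8, 63.2 and 78.7 CPM in male libraries, at -0.88 ± 0.25 (edgeR adjusted p = 0.017). Cdkn1a, which encodes p21, was higher in the same female line by 2.79 ± 0.39 log2 (edgeR quasi-likelihood test), and securin was at -1.38 ± 0.18. Of 41 regulators, 1 was higher and 1 lower in this comparison. Against the mean of the other 9 lines, Cdkn1a was higher in the lot 7 female (1.78 ± 0.24) and lot 6 male line (2.40 ± 0.25). It was lower in the lot 7 male (-1.32 ± 0.32), lot 12 female (-1.57 ± 0.38) and lot 12 male line (-1.63 ± 0.39). Low Cdkn1a thus went with low mitotic scores in lot 12, and the relation was not tested. In lot 8, Tyms had 351, 369, 299 and 282 CPM in female and 419, 401, 399.8 and 425 CPM in male libraries, at -0.34 ± 0.10 (edgeR adjusted p = 0.023). It was the 1 member called there, where 11.4% of all genes were called and 4.99% were lower. In lot 11, Rrm2, the regulatory subunit of ribonucleotide reductase, had 361, 288, 324 and 303 CPM in female and 224, 238, 214 and 224 CPM in male libraries. It was the 1 member called, at 0.50 ± 0.14 (edgeR adjusted p = 0.035), where 4.33% of all genes were called and 1.52% were higher. The lot 8 call was lost without any of 4 libraries of the lot (lot 8 female replicates 3 and 4, lot 8 male replicates 1 and 4), and the lot 11 call without any of 6 (lot 11 female replicates 1 and 3 and each male library).

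In lot 12, 0 members differed between the female and the male line, where 3.8% of all genes did, and the fit with the replicate number as a block gave 0 too. Of the members, 2 had an unadjusted p under 0.05: Cdk1, at -0.37 ± 0.14 (SE, edgeR adjusted p = 0.14), and Ccne1, at 0.50 ± 0.23 (edgeR adjusted p = 0.28). Without replicate 2 of the lot 12 female line, 3 members passed.

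The difference between female and male line was tested for change between lots, and 7 members passed, where 29.9% of all genes did. Female over male, Tyms had log2 fold changes of -0.07 (lot 6), -0.40 (lot 7), -0.34 (lot 8), 0.24 (lot 11) and 0.15 (lot 12), with an edgeR adjusted p = 0.0013. Mki67 was at 1.20 in lot 6, -0.66 in lot 7 and 0.39 in lot 11 (edgeR adjusted p = 0.0030). The others were Kif11, Bub1, Gins2, Ccna2 and Kif23. With the replicate number as a block, 27 members passed, and without replicate 2 of the lot 12 male line 16.

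Of the single lines, the lot 7 female line had the most calls after the lot 6 female line. Against the mean of the other 9, 4 mitotic members were lower (Ccna2 at -0.62 ± 0.14, Cdk1 at -0.40 ± 0.09, Kif23 at -0.65 ± 0.20 and Mki67 at -0.61 ± 0.19) and 1 S phase member was (Gins2 at -0.51 ± 0.12), where 6.6% of all genes were lower. The lot 7 male line had Tyms higher by 0.35 ± 0.07, where 5.42% of all genes were higher. In the lot 8 male line Birc5, the survivin subunit of the chromosomal passenger complex, was at 0.41 ± 0.11 and Kif11 at -0.47 ± 0.16, where 18.2% of all genes were called. The lot 11 female line had Tyms (0.29 ± 0.07), Ccna2 (0.41 ± 0.12) and the mitotic kinase Plk1 (0.59 ± 0.18) higher, where 4.54% of all genes were, and in the lot 11 male line Rrm2 was lower, at -0.38 ± 0.11, where 2.69% of all genes were. Tk1, the salvage enzyme that makes thymidine monophosphate, was lower in both lot 12 lines, at -0.33 ± 0.11 in the female (edgeR adjusted p = 0.039) and -0.45 ± 0.12 in the male (edgeR adjusted p = 0.0056). Cdk1 (-0.31 ± 0.10) was also lower in the lot 12 female and Birc5 (-0.42 ± 0.14) in the lot 12 male line, where 5.9 and 6.09% of all genes were lower. The lot 8 female line had 0 calls among the members, where 15.1% of all genes were called.

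The largest movements of these genes were found between libraries of the same lines. In lot 12, libraries of the same replicate number deviated together in the female and the male line, and S phase and mitotic members moved in opposite directions. Replicate 2 had mitotic scores of -0.999 (female) and -1.18 (male), against 0.23 and -0.04 in the female and 0.32 and 0.11 in the male libraries of replicates 1 and 3. Its S phase scores were 0.39 and 0.38, against -0.04 and -0.54 in female and -0.002 and -0.35 in male libraries. The 21 mitotic members summed to 1826 CPM in the female and 1598 CPM in the male library of replicate 2, which in the other 4 libraries was 2982 to 3967 CPM. The 19 S phase members summed to 3089 and 3212 CPM in replicate 2 and to 1763 to 2734 CPM in the others. Replicate 2 was therefore highest in S phase genes and lowest in mitotic genes in both lines. The replicate number pairs 1 female with 1 male library, and what the number marks is not given in the sources used here.

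Single mitotic genes fell several-fold. Cenpa, which marks centromeres and is made in G2, had 54.2 CPM in the female and 31.7 CPM in the male library of replicate 2, against 321 and 198 CPM in female and 340.1 and 257 CPM in male libraries of replicates 1 and 3. Ccnb1 had 61.4 and 55.9 CPM in replicate 2, against 245 and 178 CPM in female and 308 and 219 CPM in male libraries. Cdc20 had 75.9 and 68.7 CPM, against 298 and 207 CPM in female and 324 and 240.3 CPM in male libraries. Each of the replicate 2 values lay below all 4 others. Against the mean of the other replicates, the log2 fold changes were -2.68 ± 0.24 (SE) for Cenpa (edgeR adjusted p = 6.7e-08), -1.99 ± 0.18 for Ccnb1 (edgeR adjusted p = 6.7e-08) and -1.86 ± 0.17 for Cdc20 (edgeR adjusted p = 1.1e-07). Ccnb2, with 20.2 and 13.97 CPM against 64.0 to 118 CPM, was at -2.31 ± 0.26, and Cenpf was at -1.97 ± 0.18 and Ube2c at -1.29 ± 0.12. In all, 14 of 21 mitotic members were lower in replicate 2 and 0 higher, where 1.38% of all genes were lower. Kif20a, with 1.19 and 2.99 CPM, had the lowest values and the largest change, at -2.86 ± 0.58.

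S phase genes were higher in the same libraries. Mcm2 had 158 CPM in the female and 174 CPM in the male library of replicate 2, against 106 and 78.0 CPM in female and 109.5 and 80.9 CPM in male libraries. Pcna had 177 and 224 CPM, against 152 and 94.2 CPM in female and 145 and 93.1 CPM in male libraries. Cdc6 had 65.4 and 61.6 CPM, against 29.8 and 29.5 CPM in female and 36.7 and 29.2 CPM in male libraries. Replicate 2 again lay apart from all 4 other libraries. The changes were 0.84 ± 0.12 for Mcm2 (edgeR adjusted p = 4.1e-05), 0.76 ± 0.11 for Pcna (edgeR adjusted p = 1.6e-04) and 1.03 ± 0.23 for Cdc6 (edgeR adjusted p = 0.011). Mcm6, Mcm5, Mcm7, Mcm3, Mcm4, Uhrf1, Hells, Cdt1 and E2f1 were also higher. This made 12 of 19 S phase members higher and 0 lower, where 1.97% of all genes were higher. The medians were -1.28 for mitotic and 0.68 for S phase members, beside 0.001 for all genes.

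**Figure D5:**
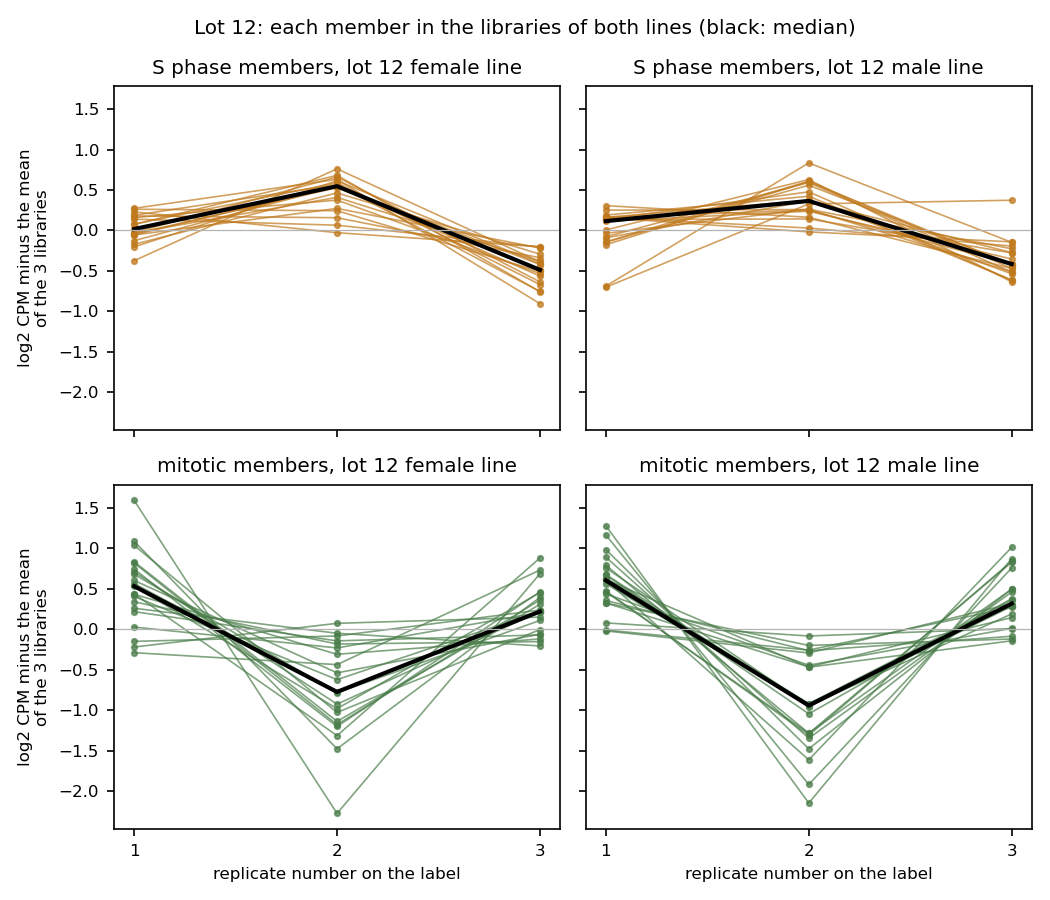
Log2 CPM of each member in the 3 libraries of each lot 12 line, minus the gene's mean over those 3, by replicate number. The female line is left of the male line, with separate panels for the S phase and mitotic sets. Each gene is 1 line, orange for S phase and green for mitotic members, and the median is black. In both lines replicate 2 is the low point of most mitotic genes and the high point of most S phase genes.

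Replicate 3 was marked by low S phase genes. Of the 19 S phase members 12 were lower than in the mean of replicates 1 and 2 and 0 higher, where 4.23% of all genes were lower. Pcna was at -0.88 ± 0.12 (edgeR adjusted p = 7.7e-05), Mcm5 at -0.94 ± 0.14 (edgeR adjusted p = 1.3e-04), Uhrf1 at -0.96 ± 0.15 (edgeR adjusted p = 2.7e-04) and Rrm2 at -0.73 ± 0.12 (edgeR adjusted p = 3.0e-04). Uhrf1 had 52.9 and 63.6 CPM in replicate 3, against 88.7 and 126 CPM in female and 111 and 130.3 CPM in male libraries. Of the mitotic members 7 were higher, where 2.26% of all genes were, and Cenpf (1.29 ± 0.15) and the kinetochore motor Cenpe (0.96 ± 0.17) had the smallest p. The mean they were compared with includes replicate 2, so its low mitotic genes enter these calls. Replicate 3 was highest in both lines for 3 of 21 mitotic members. Its mitotic scores, -0.04 (female) and 0.11 (male), lay below those of replicate 1, 0.23 and 0.32. In replicate 1, 13 mitotic members were higher than in the mean of replicates 2 and 3, where 0.945% of all genes were, and 0 S phase members were. The low mitotic genes of replicate 2 enter these calls too. Ube2c was at 0.99 ± 0.11, Cenpa at 1.74 ± 0.20, Ccnb1 at 1.35 ± 0.16 and Cdc20 at 1.29 ± 0.15.

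A test across the 3 replicate numbers of lot 12 called 28 of the 40 members, 13 of S phase and 15 of mitosis, where 6.87% of all genes passed. It did not call the S phase members Tyms, Ccne1, Gins2, Tk1, Rrm1 and Ccne2, nor the mitotic members Cdk1, Mki67, Top2a, Kif11, Bub1 and Aurkb. Mki67 had 41.6 CPM in the female and 43.3 CPM in the male library of replicate 2, against 46.1 and 93.5 CPM in female and 79.8 and 59.4 CPM in male libraries, and Top2a had 227 and 168 CPM against 217 and 284 CPM and 203 and 257 CPM. Mki67 was lowest in replicate 2 in both lines, close to the female library of replicate 1, and Top2a overlapped with the others. Ranked within each line, replicate 2 was lowest in both lines for 18 of 21 mitotic members (14.8% of all genes) and highest for 14 of 19 S phase members (14.6%). Replicate 3 was lowest in both for 17 of 19 S phase members (16.8%), and replicate 1 highest in both for 14 of 21 mitotic members (13.4%). Over all 36 libraries, the lowest value was that of a lot 12 replicate 2 library for 12 mitotic members, and the highest value was for 12 S phase members. In the other scalings and filters and with the lot alone, 12 to 14 S phase and 15 to 18 mitotic members passed.

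Some of the pathway genes outside the set were called too. Of 55 other S phase genes tested 18 were higher in replicate 2 and 0 lower, where 1.97% of all genes were higher, with the primase Prim1 at 1.03 ± 0.14, Rpa2, of single-strand binding, at 1.02 ± 0.15, and the origin gene Orc6 at 0.78. Of 78 other G2 and mitosis genes 29 were lower and 0 higher, where 1.38% of all genes were lower, with Hmmr at -1.78 ± 0.19, Cdca3 at -1.59 ± 0.19, Nusap1 at -1.57 ± 0.21 and Kif2c at -1.75 ± 0.24. In replicate 3, 16 other S phase genes were lower, where 4.23% of all genes were, and of the other G2 and mitosis genes 3 were higher and 3 lower, beside 7 higher and 0 lower among the mitotic members. Of 41 regulators, 5 passed the test across replicate numbers, where 6.87% of all genes did. In replicate 2, Cdkn2d was at -1.18 ± 0.25, and Fbxo5, the inhibitor of the anaphase-promoting complex, at 0.49 ± 0.11. In replicate 3, the Cdk4 inhibitor Cdkn2b was at 1.34 ± 0.24. Mitochondrial mRNA took 0.711% of counts in the female and 0.775% in the male library of replicate 2, against 0.647 and 0.520% in female and 0.608 and 0.461% in male libraries. Ribosomal protein genes took 18.9 and 20.1% of counts in replicate 3, against 22.0 and 21.6% in female and 23.7 and 21.9% in male libraries of replicates 1 and 2. The totals were 6500840 and 7145432 counts in replicate 2 and 4539982 to 6535421 in the others. The part of these values in the result was not tested.

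A smaller movement of mitotic genes alone was found in lot 7. The test across its 4 replicate numbers called 5 mitotic members (Ccnb1, Cdc20, Cenpf, Cenpa and Cenpe) and 0 S phase members, where 0.518% of all genes passed. Ccnb1 had 62.5 CPM in the female and 137 CPM in the male library of replicate 3, against 208 to 251 CPM in the other female and 209.5 to 225 CPM in the other male libraries. Cenpa had 82.2 and 181 CPM, against 321 to 342 CPM in female and 258 to 329.6 CPM in male libraries. Replicate 3 was the lowest library of both lines for each of these genes. Replicate 3 had Ccnb1 at -1.18 ± 0.17 (edgeR adjusted p = 2.7e-04), Cdc20 at -1.05 ± 0.16 (edgeR adjusted p = 8.1e-04) and Cenpa at -1.30 ± 0.21 (edgeR adjusted p = 0.0012), and 6 mitotic members were lower in all, where 0.246% of all genes were. All 21 mitotic members were below 0 (median -0.52), while the S phase median was 0.07. The fall was larger in the female library, whose mitotic score was -1.02, than in the male library, whose score was -0.22, and that difference was not tested. In the libraries of lot 7 alone 2 members passed. Mitochondrial mRNA was 0.77% in that female library, the highest of its line, and its part was not tested. In lots 6, 8 and 11, 0 members passed the test across replicate numbers, where 0, 0.288 and 0.263% of all genes did. At an unadjusted p under 0.05, 2, 3 and 3 members did.

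Replicate 4 existed in lots 7, 8 and 11, and its 6 libraries were compared with the 18 of replicates 1 to 3 with the line as a block. Top2a was higher by 0.34 ± 0.08 log2 (SE, edgeR adjusted p = 0.0094) and Mki67 by 0.45 ± 0.11 (edgeR adjusted p = 0.015), and 0 S phase members passed, where 1.51% of all genes were higher. Top2a had 272 to 346 CPM in the 6 replicate 4 libraries (median 289), against 155 to 285 CPM in the other 18 (median 238). Mki67 had 38.3 to 85.1 CPM in replicate 4 (median 49.6), against 28.6 to 56.9 CPM in the others (median 39.4), so both genes overlapped between the groups. Without lot 8, 0 members passed, and without lot 7 the adjusted p of Mki67 was 0.27 (edgeR). The same libraries had the lowest mitochondrial share of each of their lines, 0.251 to 0.349%, and its part was not tested.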

How the data were processed

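BRB-seq reads of polyadenylated RNA had been turned by the authors into raw counts for each Ensembl gene, per the labels. Their build was GRCm38, and the tools cutadapt 2.10, STAR 2.7.6a and Subread 2.0.2 were used, per the submitters' processing notes. Whether molecular identifiers were collapsed, the annotation release and the strand setting are not given in the sources used here, so statements on depth cover counting error only. Of 46078 identifiers, 45229 were matched to GENCODE M21 and 849 were not. Libraries were grouped by the lot, sex and replicate number in their labels. Of 48 pairs of libraries of the same line, 0 were identical, and the chi-square over the degrees of freedom was 5.47 to 22.3.

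Counts were fitted with edgeR 4.0.16 (limma 3.58.1, R 4.3.3): filterByExpr with a minimum count of 10, TMM scaling, the quasi-likelihood test and Benjamini-Hochberg adjustment over all genes tested, at a threshold of 0.05. A fit of all 36 libraries, each line having its own coefficient, served the comparisons within lots and among lines, and line sums with the lot as a block served that of the sexes across lots. CPM use TMM-scaled library sizes, except those of the cell type markers and of a count of 3, which use total counts. Scores use log2 CPM with a prior count of 2. Tests of replicate numbers, in the fit with the replicate number within each lot as a block, were added after the data were seen. Their 3 or 4 contrasts per lot were each adjusted over genes. Summaries used Python 3.11.15 with scipy 1.17.1, numpy 2.4.6 and pandas 2.3.3, and figures matplotlib 3.10.9. Promoter sequences came from RefSeq (GRCm38.p6). The fits were tested on simulated data, and the outcome is not reported here.

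The members and gene lists were chosen with earlier results of these data known. All members could be named. Values per library or line were given for Mki67, Top2a, Ccnb1, Pcna, Mcm2, Ccne1 and E2f1 and for up to 4 members of each set with the smallest p in a comparison, and up to 4 genes were named from each other list, some of which are not reported here. Further members named, such as those with a printed promoter, were chosen after their values were seen. Alternatives were other scalings and filters, DESeq2 1.42.0, limma voom, a replicate block, the lot alone, and leaving out libraries, replicate 4 or lots.

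Replicate numbers were checked for pairing by the correlation of residuals between the female and male library of the same number, over genes with a mean log2 CPM over 4. In lot 12 all 3 pairs exceeded 0.1, at 0.392 to 0.528, against -0.441 to -0.099 for libraries of other numbers, so they were taken as paired. Deviations from a line's mean cancel out within the line, so the negative values are not independent of the positive ones. In lots 6, 7, 8 and 11, 1 of 3, 3 of 4, 1 of 4 and 3 of 4 pairs exceeded 0.1. In lot 11 the same-number pairs, at 0.095 to 0.253, still all lay above those of other numbers, at -0.137 to 0.081. In lot 7 these ranges were 0.035 to 0.265 and -0.208 to 0.040.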

Additional observations from a re-analysis of the deposited data

Results flagged for a closer look

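Of 58 groups of 4 to 10 libraries or lines examined for a value far from the rest, 6 had one, where chance flags about 1 in 20. The mitotic score of replicate 3 of the lot 7 female line, at -1.02, lay far below the other 3 libraries of the line, which were between -0.08 and 0.01. The lot 12 male line had a mitotic score of -0.25, far below the other 4 male lines. That mean rested on replicate 2, at -1.18, while replicates 1 and 3 were at 0.32 and 0.11. In replicate 4 of the lot 7 male line Mki67 was at 85.1 CPM and Top2a at 327 CPM, both above the other 3 libraries of the line. E2f1 was at 20.7 CPM in replicate 2 of the lot 8 female line, above the other 3, and Mki67 at 28.6 CPM in replicate 2 of the lot 11 male line, below the other 3.

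The difference between the female and the male line changed between lots for 7 members in the edgeR quasi-likelihood test, with adjusted p = 0.0013 for Tyms, 0.0030 for Mki67, 0.0051 for Kif11, 0.0051 for Bub1, 0.0079 for Gins2, 0.028 for Ccna2 and 0.031 for Kif23. Kif11 was at 0.80 in lot 6, -0.50 in lot 7 and 0.45 in lot 8 (log2, female over male), and Ccna2 at -0.49 in lot 7 and 0.49 in lot 11.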

How the results depend on the processing

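The main limits are 1 line per sex and lot, libraries not described as separate cultures, and 1 library per sex behind each replicate number. At 4358098 to 7562901 counts a library, the member of lowest level, Kif20a, rested on 8 counts in 1 library, which limits the precision of its fold changes. No fold change of a single called member changed sign under an alternative. Leaving out single libraries in turn aside, 469 such values kept their side of the threshold while 19 lost it. With each of the 36 libraries left out in turn, more calls were lost. Cdk1, in the lot 6 female line against the mean of the other 9, lost its call in 13 fits and kept it in 23. Between the sexes, Ube2c in lot 6 and Rrm2 in lot 11 each lost theirs in 6 and kept it in 30. Mki67, Bub1 and Kif11 in lot 6 kept theirs in all 36. Medians of the sets did change sign: without scaling the S phase median was 0.02 in lot 6 and 0.01 across lots, and without lot 6 the mitotic median across lots was -0.002. Some line scores near 0 changed sign too, and those of lot 12 did with 1 library left out.

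Counts of members called moved by more than 1.5 times as follows, and the cause was not tested. Between the sexes in lot 6, 10 members were called, and 16 in its libraries alone. In lot 7, 3 were called, 9 with no filter, 5 with a stricter filter, 5 in its libraries alone and 7 with DESeq2. In lot 8, 1 was called, 2 with no filter and 4 in its libraries alone. In lot 11, 1 was called, 2 without scaling, 3 with no filter and 5 in its libraries alone. Among lines, 17 were called, 30 with no filter and 11 without the replicate 4 libraries. With no filter, the difference between sexes changed between lots for 19 members in place of 7, and 71 of 400 pairs of member and line passed in place of 33. For replicate 4, 2 were called, 6 with no filter, 4 without lot 7, 0 without lot 8, 4 without lot 11 and 5 with DESeq2. For the replicate numbers of lot 7, 5 were called, 10 with no filter and 2 in the lot alone, and for those of lot 8, 0 were called and 2 with no filter. Without replicate 2 of both lot 12 lines and replicate 3 of the lot 7 female line, chosen after the data were seen, 5 were called in lot 7, 4 in lot 11, 30 among lines, 17 for change between lots and 61 for single lines.

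With the replicate number as a block, the sexes differed for 15 members in lot 6, 10 (lot 7), 5 (lot 8), 6 (lot 11) and 0 (lot 12), the lines for 24, and the difference changed between lots for 27. Only lot 12 met the rule used for pairing, but in lot 11 too every same-number pair correlated more than those of other numbers. The main fit had no replicate block, also in lot 12, so its counts of calls leave pairing aside.

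Some line scores moved by more than the spread between libraries. Without scaling the mitotic score was 0.64 in the lot 6 female and -0.10 in the lot 6 male line, and the S phase score -0.12 in the lot 6 male and 0.00058 in the lot 8 male line. Without the 3 libraries just named, the mitotic score was 0.43 in the lot 6 female, -0.079 in the lot 6 male, -0.000776 in the lot 8 female and 0.023 in the lot 11 female line, and the S phase score 0.047 in the lot 6 male and 0.12 in the lot 8 male line.

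With each library left out in turn, the lowest and highest numbers of members called were 6 and 12 for lot 6 (6 without replicate 3 of either line), 2 and 7 for lot 7, 0 and 2 for lot 8, 0 and 1 for lot 11, 0 and 3 for lot 12, 12 to 22 among lines, 5 to 16 for change between lots, 11 to 20 for the lot 6 female line and 28 to 42 for all lines. In lot 7, 5 were called without replicate 3 of the lot 6 female, replicate 1 of the lot 7 female or replicate 2 of the lot 12 female line, 7 without replicate 3 of the lot 12 female line and 6 without any 1 lot 12 male library. The change between lots had 13 without replicate 2 of the lot 12 female line. In lot 12 the mitotic score ranged from -0.49 to 0.06 in the female and -0.51 to 0.17 in the male line.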
